A study of Mus musculus with 672 samples.

Results

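Early Neurog3 cells are taken here as cells of the embryonic mouse pancreas that carry RNA of the transcription factor Neurog3 while their Neurod1 RNA is still low or absent. Of the 672 cells in the series 601 were kept, 361 of these had Epcam of at least 30 CPM (reads of the gene per 1000000 reads on genes), and 57 were early Neurog3 cells. A member had Neurog3 of at least 10 CPM, Neurod1 under 30 CPM, Epcam of at least 30 CPM and Col3a1 under 300 CPM. The cells were thus chosen by these 4 measured values, so these genes are described and not tested. The members were set beside 241 Neurog3-low epithelial cells (Epcam of at least 30 CPM, Neurog3 under 10, Neurod1 under 30) and beside 60 Neurod1 cells (Neurod1 of at least 30 CPM, whatever their Epcam).

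All cells came from C57BL/6 mouse embryos with no genetic change or treatment named, at the embryonic (E) stages E13.25 or E15.25. They were sorted singly after antibody staining, with the antibodies not named, into 7 plates of 96 wells, and each cell gave a full-length library without molecular identifiers. The 4 E13.25 plates carry pancreas numbers 1 to 4 and no region. Titles of pancreas 4 also carry a mouse number, which those of pancreas 1 to 3 lack, and its meaning is not given. The 3 E15.25 plates are, by label, the tips of buds 1 and 2 and the trunk of bud 2. Age and dissected region therefore cannot be told apart. The members numbered 8, 6, 9 and 12 in E13.25 plates 1 to 4 (35 cells) and 9, 4 and 9 in E15.25 tip 1, tip 2 and trunk 2 (22 cells).

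Plates were the replicates, and no label says that they came from separate embryos, so a p-value here reflects plate-to-plate spread alone, which can be technical. Summed reads on genes of the kept cells ran from 95215056 to 157638042 per plate. The members had a median of 844228 reads on genes (103567 to 4368017), with 1330208 at E13.25 and 495608 at E15.25. The median share of mitochondrial reads in members was 4.46% at E13.25 and 7.25% at E15.25. Each well was its own library, so no cell barcode was shared, and no doublets were removed. A single member of E15.25 tip 1 had 762879 CPM of globin reads, and the counts of called genes below changed by at most 10 when it and the other 3 cells of this kind were left out.

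Neurog3 is the transcription factor that commits cells of the pancreatic epithelium to the endocrine lineage, and it is switched on for a short time. It turns on Neurod1 and further transcription factors, while Notch signalling between neighbouring cells, with Hes1 as a target, represses it. In the developing pancreas the bipotent trunk, marked by Sox9 and Spp1, gives rise to duct and endocrine cells, and the tips, marked by Cpa1, become acinar cells that make digestive enzymes.

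Neurog3 itself, on the scale of a single cell, ran from 10.1 to 7969.6 CPM over the 57 members, with a median of 105. The members nearest to the limit had 10.1, 10.6 and 11.1 CPM, and the nearest cells outside it had 9.41, 9.03 and 8.89 CPM. Of the other limits, 36 cells failed Neurod1 alone, 4 failed Col3a1 alone and 2 failed Epcam alone. The highest Neurod1 in a member was 12.3 CPM and the lowest outside was 44.2 CPM, so no member lay near that limit. The lowest Epcam in members was 42.9 CPM, in the cell rich in globin reads, and the next was 193 CPM, with a median of 1084. Col3a1 reached 298 CPM inside and 385 CPM outside.

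The median Neurog3 of the members was 830, 146, 379 and 169 CPM in E13.25 plates 1 to 4, and 33.1, 511 and 24.2 CPM in E15.25 tip 1, tip 2 and trunk 2. At E13.25, 11 members had 10 to 100 CPM, 16 had 100 to 1000 and 8 had 1000 or more. At E15.25 the same bands held 17, 2 and 3 members, so most cells of the later age lay in the lowest band. As a background, Neurog3 reached 10 CPM in 8 of 203 mesenchymal cells (3.94%, exact 95% binomial interval 1.72 to 7.62), which should lack it. None of these reached 50 CPM. The share was 27.4% (99 of 361) in cells with Epcam, with median depths of 1149290 reads in mesenchymal cells and 1009026 in the cells with Epcam. In E15.25 trunk 2, 3 of 13 mesenchymal cells reached 10 CPM. Members with the lowest Neurog3 therefore overlap the range of the background, and those over 100 CPM do not.

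The label was checked against trunk and tip genes, since the rule used neither. At E13.25, 29 of 35 members had Spp1, an osteopontin gene that marks trunk and duct cells, of at least 1000 CPM without Cpa1, a carboxypeptidase gene of tips and acinar cells, at that level. A further 2 had Cpa1 alone, 2 had both and 2 had neither. Of the 95 Neurog3-low epithelial cells of that age, 42 had Spp1 alone, 28 Cpa1 alone, 19 both and 6 neither. In each of the 4 E13.25 plates the share with Spp1 alone was higher in the members, at 87.5% against 33.3%, 83.3% against 36.4%, 100% against 48.7% and 66.7% against 48.1%.

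At E15.25 the data went against the label for part of the members. Spp1 alone was found in 7 of 22, Cpa1 alone in 10, both in 2 and neither in 3. The Neurog3-low epithelial cells of this age were split in a similar way, with 36, 73, 14 and 23 of 146. The members with Cpa1 lay in the lowest Neurog3 band: of the 5 E15.25 members with Neurog3 of at least 100 CPM, 4 had Spp1 alone and none had Cpa1 at that level. Over both ages, 26 of the 29 members with at least 100 CPM of Neurog3 had Spp1 alone. The E15.25 members are therefore a mix of Spp1 cells and Cpa1 cells at low Neurog3, and comparisons that rest on them are given beside E13.25 alone.

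**Figure D1:**
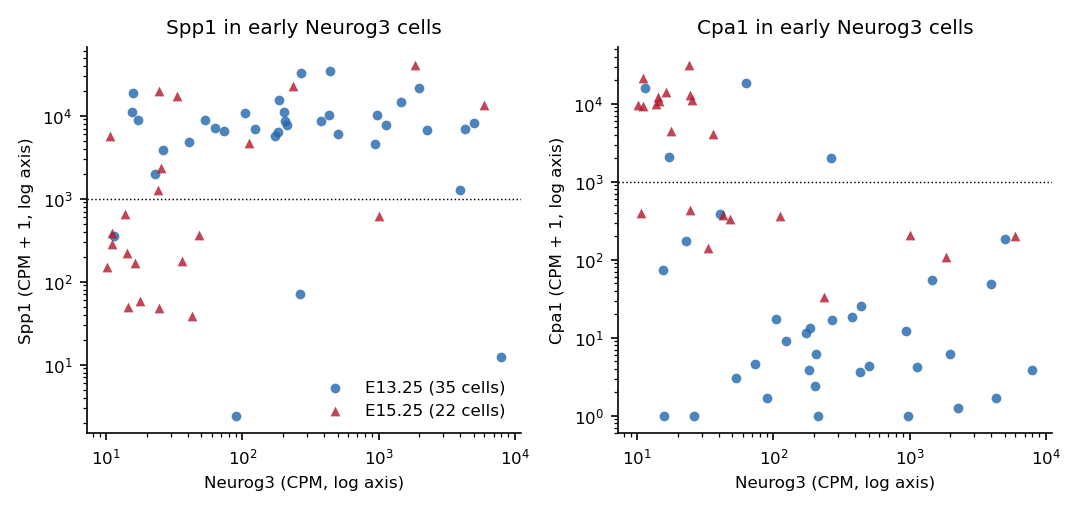
Spp1 (left) and Cpa1 (right) against Neurog3 in each of the 57 early Neurog3 cells, in CPM on log axes with 1 added to the vertical scale; the dotted line marks 1000 CPM. Of the E13.25 cells 29 of 35 sit above the line for Spp1 alone, and 10 of 22 E15.25 cells sit above it for Cpa1 alone, all of them at low Neurog3.

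Within the 35 members of E13.25 the genes around Neurog3 were not on in every cell. Spearman correlations with Neurog3 across these cells are given as a description; the cells share 4 plates and differ in depth. The correlations cover only genes of the chosen lists or picked by the naming rule, each at 10 CPM or more in at least 10 cells. The ranking is therefore not over all genes. Among these, Rfx6 (0.67), a transcription factor of islet development, and Rcor2 (0.63), a corepressor, were highest. Hes6 (0.63), a Hes family member that opposes Hes1, came next. Amotl2, a junction-associated angiomotin, followed at 0.58, Gadd45g, a stress and growth-arrest gene, at 0.52 and Rfx3, a transcription factor of ciliogenesis and islet development, at 0.52. Dll1, a Notch ligand, had 0.48, Insm1, a zinc finger repressor of endocrine differentiation, 0.45 and Cdkn1a, which encodes the cyclin-dependent kinase inhibitor p21, 0.44. The lowest were Jund (-0.63) and Jun (-0.62), members of the AP-1 complex, and the replication genes Dtl (-0.62) and Mcm5 (-0.58).

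The genes reached a level of 50 CPM at different points of the Neurog3 range. For Hes6 this level was met in 6 of 11 cells of the lowest band, 13 of 16 of the middle band and 8 of 8 of the highest, beside 61 of 95 Neurog3-low epithelial cells and 28 of 30 Neurod1 cells of E13.25. Rcor2 went from 3 of 11 to 14 of 16 and 7 of 8, and was met in 10 of 95 Neurog3-low cells. Cdkn1a went from 6 of 11 to 15 of 16 and 7 of 8. These genes were thus at that level in most cells of the middle band. Hes6 was also at it in most Neurog3-low cells, and Cdkn1a was present in Neurog3-low cells too, as given below.

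Other members of the programme appeared mainly in the highest band. That band held 4, 1, 1 and 2 cells of E13.25 plates 1 to 4, so band and plate cannot be fully told apart. Rfx6 reached 50 CPM in 1 of 11, 3 of 16 and 7 of 8 cells, in none of the 95 Neurog3-low cells, and in 26 of 30 Neurod1 cells. Insm1 did so in 1, 4 and 5 cells of the same bands, in none of the Neurog3-low cells and in 25 Neurod1 cells. For Pax4, a transcription factor that favours beta and delta cells, the numbers were 0, 2 and 4 cells, against 2 Neurog3-low and 23 Neurod1 cells. Btbd17 had 0, 3 and 5 cells, against 24 Neurod1 cells. Single-cell medians of Rfx6 were 0, 0.571 and 371 CPM in the 3 bands, and those of Insm1 0.594, 2.81 and 396 CPM.

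Some trunk and cycle genes went the other way along the same bands, and others did not. Sox9, the trunk transcription factor, reached 50 CPM in 11 of 11, 16 of 16 and 5 of 8 cells. Bicc1, an RNA-binding protein of ductal epithelium, did so in 10, 13 and 2 cells, and in 4 of 30 Neurod1 cells. Jag1, a Notch ligand, was at that level in 3, 2 and 0 cells, against 56 of 95 Neurog3-low cells. Mcm5, a subunit of the replicative helicase, was on in 8, 9 and 0 cells. Correlations with Neurog3 were weak for Sox9 (-0.19), Bicc1 (-0.24), Spp1 (0.05), Mcm2 (-0.14) and Mcm4 (-0.07), and positive for the trunk genes Krt7 (0.40) and Tead2 (0.26). The transcription factors Pax6, Fev, St18, Isl1 and Runx1t1 and the granule genes Chga and Chgb reached 50 CPM in none of the 35 members. A count of 0 of 35 allows a share of up to 8.57% (3 of 35), which covers counting error only. Thinning each cell to 100000 reads, which left out no cell, changed each of the counts by band named above by at most 1 cell.

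**Figure D2:**
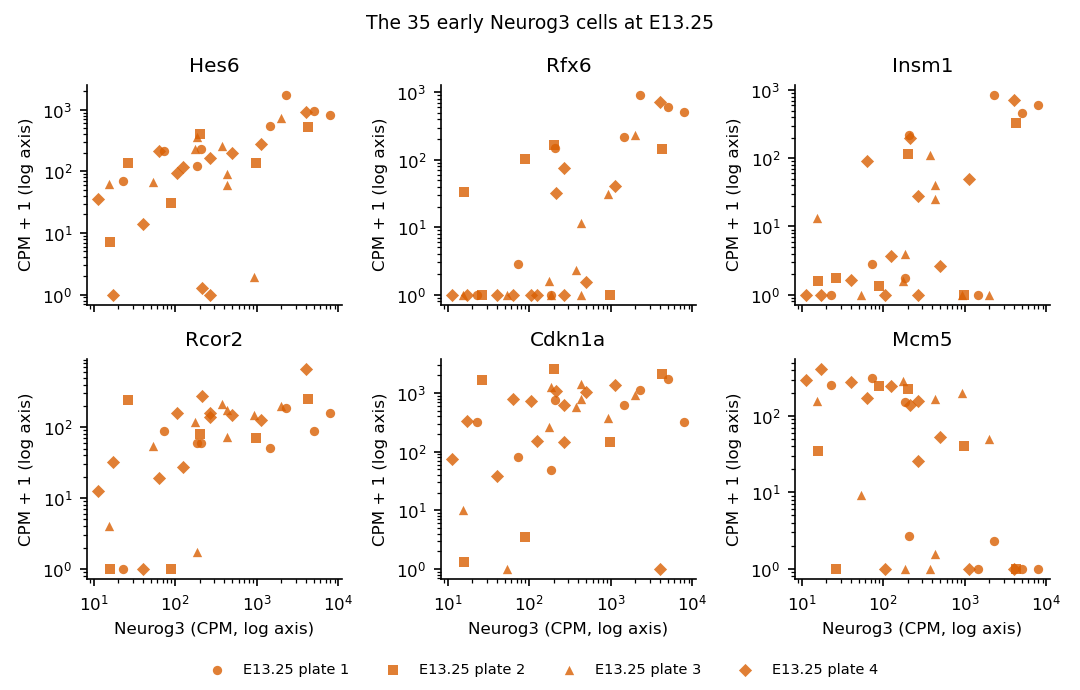
Levels of 6 genes against Neurog3 in the 35 early Neurog3 cells of E13.25, in CPM on log axes with 1 added to the vertical scale; the marker shape gives the plate. Hes6, Rfx6, Insm1, Rcor2 and Cdkn1a are higher toward the right (Spearman 0.63, 0.67, 0.45, 0.63 and 0.44), and Mcm5 is lower (-0.58).

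To compare the members with the Neurog3-low epithelial cells, raw counts were summed per plate and class wherever a plate had at least 5 cells of it. This left 6 plates for the members (not E15.25 tip 2, with 4 cells), 7 for the Neurog3-low cells and 5 for the Neurod1 cells. With edgeR's quasi-likelihood test and the plate as a block, 0 of 15778 genes (0% of those tested) passed a Benjamini-Hochberg adjusted p of 0.05. At an unadjusted p under 0.05, 378 genes were higher (2.4%) and 991 lower (6.28%). DESeq2 called 174 higher and 580 lower on the same sums. The values below therefore describe the plates, and none is a call of the edgeR test.

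Insm1 was present in every plate of members and near 0 in the Neurog3-low cells. It had 495, 117, 28.6 and 70.2 CPM in the members of E13.25 plates 1 to 4 and 15.95 and 39.3 CPM in E15.25 tip 1 and trunk 2. In the Neurog3-low cells it had 0.109 to 2.98 CPM over 7 plates, with 0.501 as the median. The groups did not overlap. The log2 difference was 7.13 ± 1.03 (SE), higher in 6 of 6 plates, with an adjusted p of 0.104 in edgeR. The call depended on the design: Insm1 passed without the plate block (7.34, adjusted p 0.0078, edgeR), without the filter on low counts (7.03, adjusted p 0.0376, edgeR) and without E15.25 trunk 2 (7.98, adjusted p 0.0322, edgeR).

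Cdkn1a had 909, 1231, 753 and 764 CPM in the members of the E13.25 plates and 362 and 118 CPM in E15.25 tip 1 and trunk 2. The Neurog3-low cells lay between 71.2 and 222 CPM, with a median of 128. All 4 E13.25 plates stood above every Neurog3-low value, and E15.25 trunk 2 lay inside their range. The log2 difference was 2.12 ± 0.41 (SE; 6 of 6 plates higher, adjusted p 0.155, edgeR). In the E13.25 plates alone it was 2.52 (adjusted p 0.038, edgeR), and without E15.25 trunk 2 it was 2.27 (adjusted p 0.029, edgeR). With both classes of E13.25 restricted to Spp1 of at least 1000 CPM, 0 genes passed in edgeR (777 at an unadjusted p under 0.05). The smallest adjusted p there was 0.788 in edgeR.

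Among the other transcription factors, Rfx6 had 551, 98.8, 42.7 and 20.8 CPM at E13.25 and 19.8 and 3.62 CPM in E15.25 tip 1 and trunk 2, against at most 10.5 CPM in the Neurog3-low cells. E15.25 trunk 2 was the plate in which the members were lower, and the log2 difference over all plates was 6.83 ± 1.61 (SE, adjusted p 0.267, edgeR). Pax4 had 226, 162, 66.6 and 3.22 CPM at E13.25 and 1.80 and 3.62 at E15.25, against at most 5.61 CPM, with a difference of 5.17 ± 1.39 (SE, 6 of 6 plates higher, adjusted p 0.294, edgeR). Most of the Pax4 signal thus lay in E13.25 plates 1 to 3.

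Of the 24 transcription factors listed for the Neurog3 cascade, 19 were tested, 15 had a positive log2 difference and none passed. Their median was 1.62, beside -0.20 for all genes. Rfx3 was higher in 6 of 6 plates (127 ± 90.8 CPM, SD, n = 6, against 36.01 ± 13.4, n = 7; log2 difference 1.62). Nkx2-2, a regulator of islet cell fate, had 98.9 ± 88.6 CPM against 21.5 ± 15.7 (1.86). Isl1, a LIM homeodomain factor of later endocrine cells, and Runx1t1, a corepressor, were on the other side at -3.24 and -3.15. Of 22 further genes known from endocrine progenitors, 20 were tested and 19 were positive, with a median of 1.43. Rcor2, a cascade factor, had 2.03 (6 of 6 plates). Of the 22 granule and secretion genes 5 were positive and 17 negative, with a median of -1.02, and Cplx2, a synaptic exocytosis protein of that list, was on the positive side at 2.62 (6 of 6 plates).

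The 3 markers of the label that the rule left free moved less. Spp1 had 9498 ± 2704 CPM (SD, n = 6) in the members and 5261 ± 2817 (n = 7) in the Neurog3-low cells, with a log2 difference of 0.95 (adjusted p 0.741, edgeR). Sox9 had 610 ± 405 against 411 ± 216 CPM (0.40, adjusted p 0.765, edgeR), and Hes6 307 ± 370 against 124 ± 59.8 CPM (0.80, adjusted p 0.661, edgeR). The differences in mean for Sox9 and Hes6 were smaller than the SD between plates of members, and were positive in 5 and 4 of 6 plates. That for Spp1 was larger than both SDs and was positive in 5 of 6 plates, but did not pass. For Hes6, E13.25 plate 1 alone reached 1041 CPM and the other 5 plates lay between 34.7 and 264.

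Notch pathway genes were split. Of the 6 ligands tested, 3 had a positive and 3 a negative difference, with Dll1 on the higher and Jag1 on the lower side. Dll1 had 573, 342, 180 and 135 CPM in the members at E13.25 and 169 and 34.3 CPM at E15.25, against 17.1 to 152 CPM in the Neurog3-low cells (median 56.9). It was higher in 6 of 6 plates with a log2 difference of 1.75 ± 0.45 (SE, adjusted p 0.284, edgeR). Jag1 had 23.6 ± 13.6 CPM (SD, n = 6) against 116 ± 99.5 (n = 7), lower in 5 of 6 plates, with -2.35 (adjusted p 0.294, edgeR). The receptor Notch1 had 144 ± 36.7 against 110 ± 29.8 CPM, and the target Hes1 had 449 ± 174 against 446 ± 256 CPM.

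Digestive enzyme genes lay on the lower side in the members. All 17 tested genes of the 18 on the tip and acinar list had a negative difference, with a median of -3.64. Their summed level was 69.7 to 2350 CPM in the members of the E13.25 plates, against 17124 to 25564 CPM in the Neurog3-low cells of that age, and the groups did not overlap. At E15.25 it was 63229 to 65286 CPM against 59575 to 123760 CPM, and the groups overlapped. Pnliprp1, a pancreatic lipase-related protein, had 2.36, 0.54, 8.65 and 65.6 CPM in the members at E13.25, against 2331 to 4504 CPM (log2 difference over all plates -5.80, 6 of 6 plates lower, adjusted p 0.382, edgeR). The Neurog3-low cells hold many tip cells, as the Cpa1 counts above show, and restricting both classes of E13.25 to Spp1 of at least 1000 CPM left 12 of 12 tested tip genes negative with a median of -6.25. That limit kept 19 Neurog3-low cells and 2 members that also had Cpa1 at this level, so it did not remove cells with tip genes from the comparison group.

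**Figure D3:**
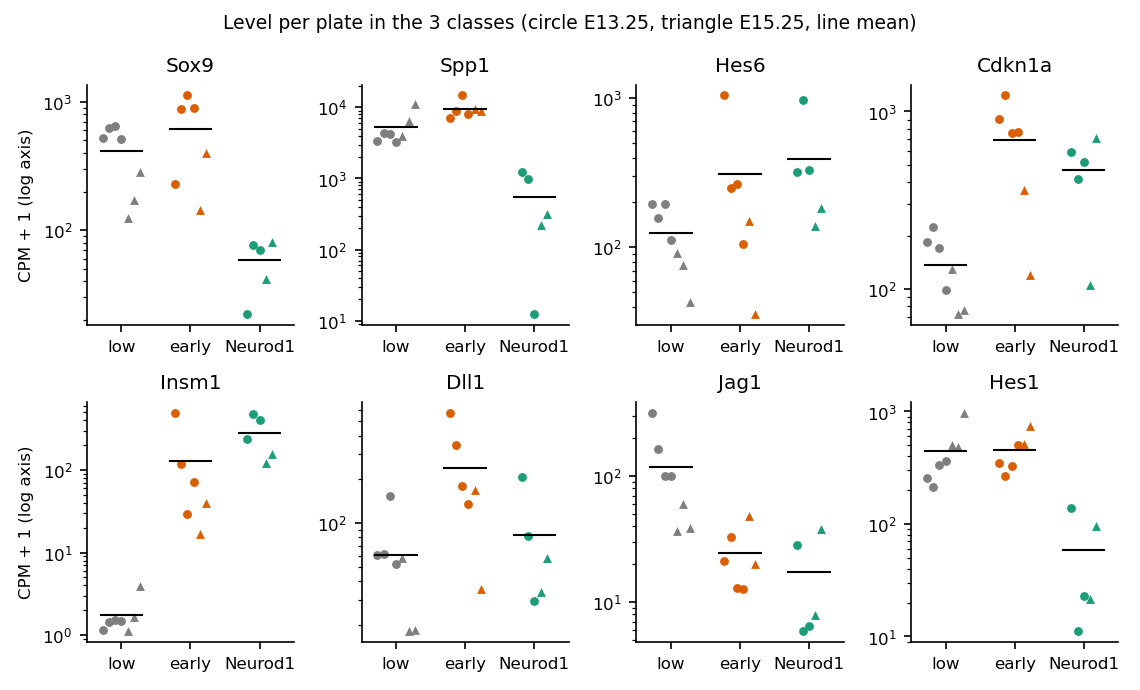
Levels of 8 genes in the Neurog3-low epithelial cells (low), the early Neurog3 cells (early) and the Neurod1 cells, 1 point per plate with at least 5 cells, in CPM with 1 added on a log axis; circles are E13.25, triangles E15.25 and lines means. Insm1 in early cells (15.95 CPM or more) lies above every Neurog3-low plate (at most 2.98 CPM), and Jag1 is low in early and Neurod1 cells (means 23.6 and 16.4 CPM).

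The level of S phase genes in the members lay between those of the neighbouring classes. The 42 S phase genes summed to 2826, 3499, 3289 and 3145 CPM in the members of E13.25 plates 1 to 4, against 6815, 5766, 6413 and 4886 CPM in the Neurog3-low cells of the same plates. At E15.25 the members had 2532 and 3173 CPM in tip 1 and trunk 2, against 4327 and 3646 CPM. The members were lower in 6 of 6 plates, and 40 of 42 genes had a negative difference with a median of -1.02, none of them past the threshold. The Neurod1 cells had 790 to 1793 CPM. Of the 52 G2 and M phase genes 50 were negative, with a median of -1.07, but their summed level did not keep that order in every plate. It was higher in members than in Neurog3-low cells in E13.25 plate 4 (6244 against 4575 CPM) and E15.25 tip 1 (5676 against 4395 CPM), and lower than in Neurod1 cells in trunk 2 (2927 against 5335 CPM).

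Over single cells of E13.25 the S phase level was graded. Its median was 5655 CPM in members with Neurog3 under 100 CPM, 2679 CPM in the middle band and 2368 CPM in the highest, beside 5114 CPM in Neurog3-low cells and 1324 CPM in Neurod1 cells. The G2 and M phase level had medians of 4131, 2214 and 1948 CPM in the same bands and 3901 CPM in the Neurog3-low cells. Members under 100 CPM of Neurog3 were thus at the level of the Neurog3-low cells for both lists.

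In the E13.25 plates alone the cascade, progenitor, S phase and tip lists kept the sign of their medians. Of 21 cascade transcription factors tested 17 were positive (median 1.90), of 19 further endocrine progenitor genes 19 (2.03), of 42 S phase genes 1 (-1.28) and of 16 tip genes 0 (-8.12), beside -0.18 for all genes. With both classes restricted to Spp1 of at least 1000 CPM, 9 of 11 cascade factors were positive (1.99), 14 of 14 endocrine progenitor genes (2.05) and 1 of 42 S phase genes (-1.46), beside -0.13. Trunk and duct genes had a median of 0.43 in all plates, 0.76 at E13.25 and 0.39 in the Spp1 cells. Other lists changed sign at E13.25. The median was 0.98 for hormone genes (4 tested, -2.09 in all plates), 0.05 for granule genes (-1.02) and 0.33 for Notch targets (-0.49). Hormone genes summed to 76.9 CPM in the members of E13.25 plate 1 and at most 2.28 CPM in plates 2 to 4. The Neurog3-low cells of that age had 0.17 to 1.69 CPM. In the Spp1 cells the medians were -0.97 for granule genes and -0.10 for Notch targets, and no hormone gene was tested. Notch ligands had medians of -0.48 in all plates, -2.37 at E13.25 and 1.56 in the Spp1 cells.

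Markers of other cell types differed in level. The Col3a1 limit applied to members and not to Neurog3-low cells, so lower mesenchyme levels in members follow in part from the rule. Mesenchyme genes summed to 58.3 to 280 CPM in members and 56.2 to 2137 CPM in Neurog3-low cells. The 6 mesothelium genes summed to 0.794 to 5.37 CPM in members, with 4 of them under 1 CPM in every plate, and to 3.14 to 392 CPM in Neurog3-low cells. The 8 endothelium genes reached 34.2 CPM and the 8 leukocyte genes 31.5 CPM at most in members. Erythroid genes ran from 12.3 to 190 CPM at E13.25 and from 1113 to 61309 CPM at E15.25, and in tip 1 the 61309 CPM of the members stood beside 4667 CPM in the Neurog3-low cells. Gut and liver genes summed to 238 to 880 CPM in members and 543 to 1369 CPM in Neurog3-low cells, and neural genes to 5.91 to 95.03 CPM and 19.5 to 107 CPM. With the Neurog3-low cells also held under 300 CPM of Col3a1, 0 genes passed in edgeR (1258 at an unadjusted p under 0.05). The part of these cell types in single differences was not tested.

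**Figure D4:**
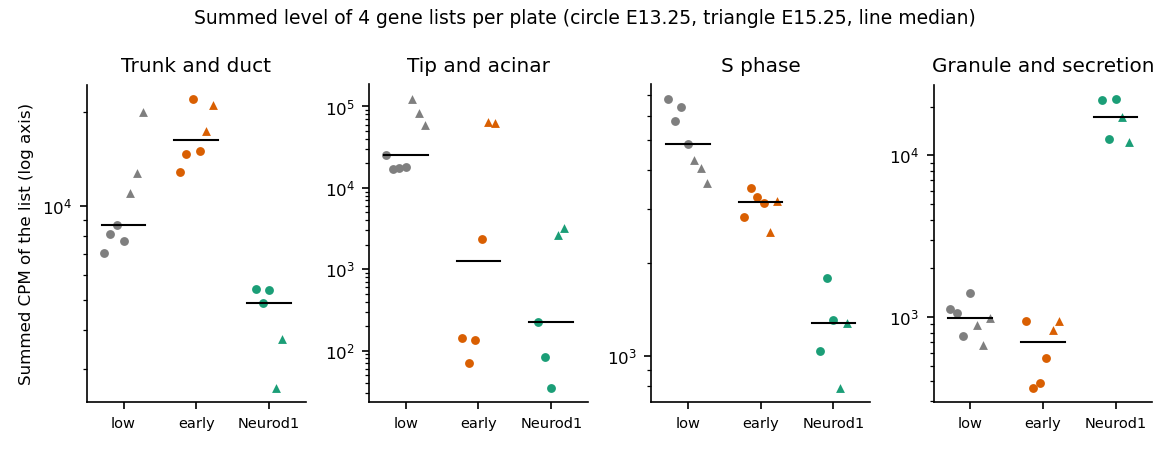
Summed CPM of 4 gene lists per plate in the Neurog3-low (low), early Neurog3 (early) and Neurod1 cells, on a log axis; circles are E13.25, triangles E15.25 and lines medians. S phase genes step down from 4886 over 3159 to 1286 CPM (medians), and tip and acinar genes of early cells fall into an E13.25 group of at most 2350 CPM and an E15.25 group of at least 63229 CPM.

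Many genes passed the test between the members and the Neurod1 cells. In the same fit, 479 of 15778 genes were higher (3.04%) and 397 lower (2.52%) in the Neurod1 cells at an adjusted p of 0.05 in edgeR, and DESeq2 called 1612 and 1579. Both comparisons share the early cells, and 4 plates held both classes (E13.25 plates 1, 3 and 4 and E15.25 trunk 2). Mesenchyme genes summed to 918 to 3622 CPM in the Neurod1 cells, against 58.3 to 280 CPM in the members. None of the 14 tested mesenchyme genes passed. Of these, 13 were positive, with a median of 2.87, and 5 were higher at an unadjusted p under 0.05 in edgeR. With the Neurod1 cells held to the Epcam and Col3a1 limits of the members, edgeR called 1069 genes. Of these, 803 were among the 876 genes called in the main fit. The part of mesenchyme genes in single differences was not tested.

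Later transcription factors were low in the members and rose in the Neurod1 cells. Pax6, a homeodomain factor of islet cells, had 0.0671 to 4.18 CPM in the 6 plates of members (median 0.608) and 441 ± 194 CPM (SD, n = 5) in the Neurod1 cells, a log2 change of 8.94 ± 1.07 (SE, adjusted p 6.88e-04, edgeR). Fev, an ETS factor of serotonergic neurons and endocrine precursors, rose by 9.83 (adjusted p 6.88e-04, edgeR), from 9 reads in all tested members to 205 ± 91.96 CPM. Isl1 rose by 10.40 (adjusted p 0.00102, edgeR) and St18 by 10.23 (adjusted p 9.93e-04, edgeR). Runx1t1, Myt1 and Mlxipl rose by 6.96, 6.26 and 6.44. Of the 19 cascade factors tested 8 rose and none fell.

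Insm1, Rfx6, Pax4 and Hes6 did not pass the same test. Insm1 had 128 ± 183 CPM (SD, n = 6) in the members and 277 ± 153 (n = 5) in the Neurod1 cells (log2 difference 1.44 ± 1.03, SE, adjusted p 0.473, edgeR). Rfx6 had 123 ± 213 against 490 ± 99.9 CPM (2.37 ± 1.52, adjusted p 0.412, edgeR) and Pax4 77.2 ± 95.9 against 499 ± 265 CPM (4.47 ± 1.59, adjusted p 0.127, edgeR). Hes6 had 307 ± 370 against 388 ± 336 CPM (0.995, adjusted p 0.305, edgeR). The spread between plates of members was larger than their mean for each of these genes.

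Hormone and granule genes rose together. All 7 tested hormone genes of 10 passed, with a median change of 10.66, and 16 of 22 granule and secretion genes passed, with a median of 8.72 beside 0.05 for all genes. Chga, which encodes the granule protein chromogranin A, had 0 to 10.02 CPM in the plates of members and 2568 ± 610.1 CPM (SD, n = 5) in the Neurod1 cells (10.86 ± 0.96, SE, adjusted p 2.18e-04, edgeR). Chgb, for chromogranin B, went from 3.85 ± 3.77 to 7399 ± 4790 CPM (10.98, adjusted p 7.41e-04, edgeR). Cck, the gut hormone cholecystokinin, rose by 7.66 (adjusted p 0.0129, edgeR). In members it had 76.7 CPM in E13.25 plate 1 and at most 1.53 CPM in the other 5 plates.

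Trunk genes fell between the members and the Neurod1 cells: 8 of 19 tested fell and 1 rose. Sox9 fell by 3.15 (SE 0.39, adjusted p 7.74e-04, edgeR), from 610 ± 405 to 57.4 ± 25.4 CPM, and Spp1 fell by 4.59 (adjusted p 0.0091, edgeR), from 9498 ± 2704 to 550 ± 525 CPM. Bicc1 had 352 ± 97.5 CPM in the members and 29.1 ± 12.4 in the Neurod1 cells, and fell by 3.83 (adjusted p 1.87e-04, edgeR). Onecut1, a transcription factor of pancreatic progenitors and duct, fell by 7.17 (adjusted p 6.88e-04, edgeR), from 40.9 ± 12.99 to 0.416 ± 0.491 CPM. Ehf, an epithelial ETS factor, fell by 6.93 (adjusted p 8.57e-04, edgeR). The summed level of the trunk and duct list was 12788 to 21970 CPM in the members, 7061 to 19939 CPM in the Neurog3-low cells and 2612 to 5405 CPM in the Neurod1 cells.

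Each Notch list had 1 gene that passed, beside 3.04% of all tested genes higher and 2.52% lower. Hes1 fell by 3.42 (SE 0.56, adjusted p 0.00383, edgeR), from 449 ± 174 to 57.3 ± 56.7 CPM, and was the 1 of 4 tested targets that passed. The receptor Notch1 fell by 2.38 (adjusted p 0.0322, edgeR), 1 of 4 receptors, from 144 ± 36.7 to 32.7 ± 33.7 CPM. Of the 6 ligands, Dll3 alone passed and rose by 8.14 (adjusted p 0.039, edgeR), from 0.388 ± 0.702 to 107 ± 75.1 CPM. The difference for Dll1 was -1.02 (adjusted p 0.292, edgeR), with 239 ± 192 against 81.5 ± 74.02 CPM. Mfng, a glycosyltransferase that modifies Notch, rose by 4.83 (adjusted p 0.0128, edgeR).

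Of the S phase genes 12 of 42 fell, with a median of -2.17. Of the G2 and M phase genes 1 of 52 fell, Ect2, with a median of -1.78. Over all tested genes 2.52% fell, so the count for G2 and M phase genes is near that share. Mcm5 fell by 3.60 (adjusted p 0.0104, edgeR), from 101 ± 35.9 to 10.1 ± 9.92 CPM. Ccnd1, which encodes cyclin D1, fell by 4.52 (adjusted p 0.0081, edgeR), from 259 ± 165 to 19.99 ± 36.6 CPM. Among junction and polarity genes 7 of 26 fell and none rose. Cldn3, a tight junction claudin, fell by 2.94 (adjusted p 6.88e-04, edgeR), from 596 ± 187 to 86.8 ± 39.1 CPM, and Vim, which encodes vimentin, fell by 1.94 (adjusted p 0.00825, edgeR). Vim had 959 ± 495 CPM in members and 482 ± 150 CPM in Neurog3-low cells, and that difference of 0.82 did not pass (adjusted p 0.474, edgeR).

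The number of calls depended on the cells entered. Raising the Neurog3 minimum to 30 or 100 CPM left 457 and 266 called genes of the 876, of which 397 and 234 were shared. The E13.25 plates alone gave 224, with 187 shared. Leaving out E13.25 plate 3, E13.25 plate 4 or E15.25 trunk 2 gave 459, 395 and 484 calls. At a minimum of 10 cells a single plate of members was left and no gene passed in edgeR (2219 at an unadjusted p under 0.05).

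Between the ages, the members differed in digestive enzyme genes. In edgeR's test of 2 E15.25 plates against 4 E13.25 plates, 13 of 14302 genes were higher (0.0909%) and 1 lower (0.00699%) at E15.25, and DESeq2 called 237 and 392. The trypsinogen-type genes Prss1, Try10 and Prss3 and the elastases Cela3b and Cela2a had no read in the 51320640 reads of the E13.25 members. Against a floor of 3 reads over that group, Prss1 was at least 13683-fold higher and Cela2a at least 4494-fold higher. Amy2b, the pancreatic amylase, had 1 read at E13.25 and 480 and 698 CPM in E15.25 tip 1 and trunk 2. Rnase1, Try5 and Erp27 had 2, 5 and 5 reads at E13.25. The Neurog3-low cells of E15.25 had Prss1 and Cela2a too. In tip 1 and trunk 2 the members differed from them by -0.95 and 0.87 in log2(CPM + 1) for Prss1. For Cela2a it was -0.13 and 0.82. At E13.25 these differences ran from -0.63 to 0 for Prss1 and from -5.99 to -1.42 for Cela2a. The trypsinogen and amylase genes are near-identical families, so reads can be split among their members.

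All 17 tested tip and acinar genes were higher at E15.25, 3 of them past the threshold, with a median of 7.04 beside -0.18 for all genes. Cpa1 of at least 1000 CPM was found in 12 of 22 members of that age and in 4 of 35 at E13.25, and the part of these cells in the difference was not tested. With members restricted to Spp1 of at least 1000 CPM and at least 3 cells per plate, no gene passed in edgeR (1283 at an unadjusted p under 0.05), and none passed at a Neurog3 minimum of 30 CPM (1118). Each of these limits left 1 E15.25 plate, trunk 2 and tip 1 respectively, so the lost calls say nothing of which cells carry the difference.

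Genes outside the enzyme group were fewer. Clu, the secreted chaperone clusterin, had 742, 452, 575 and 459 CPM in the members at E13.25 and 4409 and 7077 CPM in E15.25 tip 1 and trunk 2, a rise of 3.69 ± 0.33 (SE, adjusted p 0.0205, edgeR). The groups did not overlap, and Neurog3-low cells had 567 to 821 CPM at E13.25 and 2677 to 3113 CPM at E15.25. Reep5, an endoplasmic reticulum shaping protein, rose by 3.84 and Gstm1, a glutathione transferase, by 5.09. Edem2, of endoplasmic reticulum protein degradation, was the remaining gene that rose. Chrna4, a nicotinic acetylcholine receptor subunit, had 75.99, 256, 323 and 313 CPM in the members at E13.25 and 1.12 and 0.835 CPM at E15.25, and fell by 7.57 (SE 0.89, adjusted p 0.0436, edgeR).

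Endocrine progenitor genes leaned lower at E15.25 without passing. Of 17 tested genes of that list 15 were negative, with a median of -2.32, and of 15 cascade factors 11, with a median of -2.25. Rcor2 had 123, 111, 134 and 137 CPM at E13.25 and 1.80 and 3.90 CPM in tip 1 and trunk 2, so the ages did not overlap, with -5.12 (adjusted p 0.0586, edgeR). In the 4 members of tip 2, which did not enter the test, it had 65.1 CPM. Sox4, an SRY-box factor, had -3.15 (adjusted p 0.256, edgeR) and Cdkn1a -1.54 (adjusted p 0.457, edgeR). Hes6, Sox9 and Spp1 had -1.84, -1.17 and 0.30, with adjusted p of 0.641, 0.626 and 0.795 in edgeR. Median Neurog3 differed between the ages as given above, and its part in these differences was not tested.

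The age comparison rested on few plates. Leaving out 1 plate gave between 1 and 31 called genes: 10 without E13.25 plate 1, 5 without plate 2, 1 without plate 3, 31 without plate 4, and 1 without E15.25 tip 1 or trunk 2. Where a single E15.25 plate remained, it was assumed to vary like the others. E13.25 plates 1 to 3 had a smaller share of reads not aligned than E13.25 plate 4 and the E15.25 plates, and with a term for this split no gene passed in edgeR (574 at an unadjusted p under 0.05). The test of whether the difference between members and Neurog3-low cells changed with age called 0 of 17976 genes in edgeR. At an unadjusted p under 0.05 there were 842, and DESeq2 called 345.

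The share of early Neurog3 cells among cells with Epcam was 24.2%, 31.6%, 15.5% and 24.5% in E13.25 plates 1 to 4 and 14.8%, 6.15% and 11.8% in E15.25 tip 1, tip 2 and trunk 2. Every E13.25 plate stood above every E15.25 plate. The means were 23.96% ± 6.57 (SD, n = 4) and 10.9% ± 4.37 (n = 3), a difference of -13.04 percentage points. The two-sided exact permutation p over the 35 arrangements of plates was 0.0571, and the smallest possible is 0.0286.

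The share depended on the Neurog3 minimum in its size at E15.25. At 30 CPM it was 19.1% ± 3.57 against 4.64% ± 3.09, and at 100 CPM 15.6% ± 2.56 against 2.45% ± 0.74 (n = 4 and 3), both with an exact permutation p of 0.0286, the smallest possible. The sort gates, which are not given, can set such shares, and region and age cannot be told apart here.

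**Figure D5:**
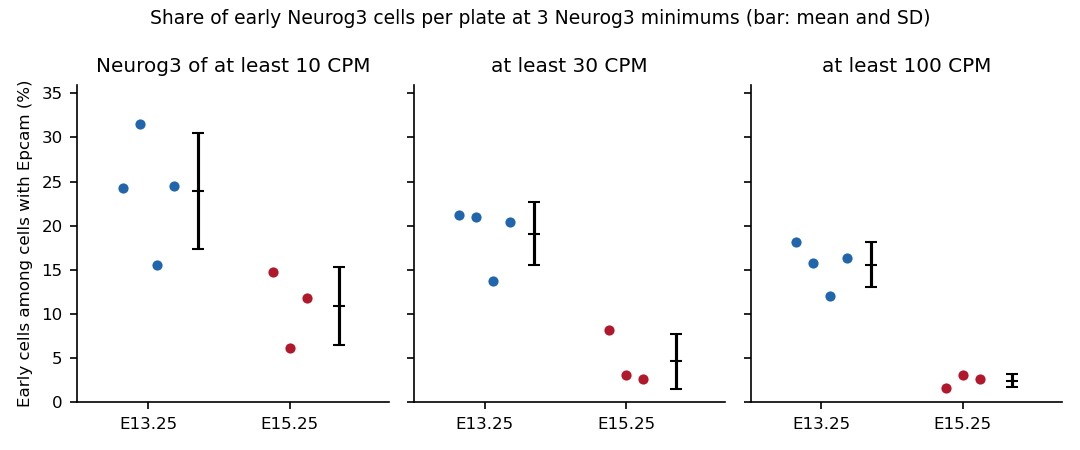
Early Neurog3 cells as a percentage of cells with Epcam of at least 30 CPM, 1 point per plate, at Neurog3 minimums of 10, 30 and 100 CPM; the bars give the mean and SD of 4 E13.25 and 3 E15.25 plates. At 100 CPM the E13.25 plates lie between 12.1% and 18.2% and the E15.25 plates between 1.64% and 3.08%.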

How the data were processed

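The values are the authors' deposited read counts of each gene in each cell, not normalized. The submitters' processing notes name GSNAP 2015-09-29, HTSeq 0.5.3p3 and the build mm10. CPM (reads of a gene per 1000000 reads on genes) were computed from the counts. The annotation release and strand setting are not given in the sources used here, and there were no molecular identifiers. Rows for ERCC spike-ins and for reads without a gene stayed out of all totals. Cells under 100000 reads on genes (68 of them), under 1500 genes or over 20% mitochondrial reads were left out.

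The members and the gene lists were chosen with earlier results of these data known. Where a plate held 5 or more cells of a class, their raw counts were added up and tested with edgeR 4.0.16 in R 4.3.3 (TMM factors, filterByExpr, quasi-likelihood F test), with Benjamini-Hochberg adjusted p of 0.05 over all genes but the 4 of the rule. The plate was a block between classes, because classes of a plate share its source and preparation. The age comparison had no block. DESeq2 1.42.0 was an alternative. Shares were compared over plates with a two-sided exact permutation test. Levels in the text are CPM of summed counts, and SE belongs to a fitted log2 difference. The upper limit for a count of 0 cells is 3 cells of the total. Intervals are exact binomial ones and cover counting error only.

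Genes were named by rule: genes past the threshold with 1 direction in every plate and 10 CPM or more, the markers, the cascade and Notch lists, and from every other list the called genes or, with none, the most abundant. Genes described only by their course along Neurog3, and Trp53i11 and Lhx9, were chosen after their values were seen. Some genes of the lists are not reported here. Alternatives varied the cell limits, the minimum of cells, the scaling, the filter on low counts, the block, the plates and the tool. On simulated data of the sums, 100 genes with a mean of 10 CPM or more were changed at each size. No further difference between plates was built in, and genes of lower level were not changed. Changes of 2 on the log2 scale were recovered for 28% of the changed genes between members and Neurog3-low cells (15505 genes tested). The share was 21% against Neurod1 cells (15524 genes) and 0% between ages (13586 genes). Changes of 4 were recovered for 71%, 67% and 36%.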

Additional observations from a re-analysis of the deposited data

Results flagged for a closer look

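In the early Neurog3 cells 7 results stood out, out of 34 sets of 4 E13.25 plates examined for a plate that stands apart and 53 genes examined for opposite directions at the ages. Dixon's 95% critical value was the limit, and 5 of the 34 were marked. That limit marks about 1 in 20 sets by chance where values are normal and sets are independent. Here CPM were used untransformed, the sets share the same 4 plates and most genes were those named in the text. The 5 marked sets can therefore not be weighed against that rate.

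In E13.25 plate 1 the members had 551 CPM of Rfx6 and 1041 CPM of Hes6, well above the other 3 plates of that age (20.8 to 98.8 CPM and 104 to 264 CPM). The same plate had 76.7 CPM of Cck against at most 0.805 CPM in the others. It held 4 of the 8 E13.25 members with Neurog3 of 1000 CPM or more, and the part of these cells in the 3 levels was not tested. In E13.25 plate 4 the members had 65.6 CPM of Pnliprp1, and the other plates at most 8.65 CPM. Plate 4 also held the 4 E13.25 members with Cpa1 of at least 1000 CPM. For Prox1, a homeobox factor of the pancreatic epithelium, E13.25 plate 2 was low at 286 CPM, and the other plates had 405 to 426 CPM.

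For Ttr, the transthyretin gene, and Chrna4 the difference between members and Neurog3-low cells had opposite signs at the ages, in every plate compared. In log2(CPM + 1) the mean for Ttr was -1.59 at E13.25 (-1.94 to -1.31 over 4 plates), and the E15.25 plates had 0.03 and 0.51. Chrna4 had a mean of 1.46 at E13.25 (0.38 to 2.19), and the E15.25 plates had -2.73 and -1.83. The edgeR test of the difference between ages called 0 genes of 17976 (842 at an unadjusted p under 0.05, 345 by DESeq2).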

How the results depend on the processing

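Counts of called genes moved with the processing; the cause was not tested. For members against Neurog3-low cells the count of 0 became 754 with DESeq2, 1 in the E13.25 plates alone (Cdkn1a), 1 without the filter on low counts and 1 without the replicate block (Insm1 in both), 5 with Neurod1 cells in the comparison group, and 0 to 4 with 1 plate left out; the 4 came without E15.25 trunk 2 (Cdkn1a, Insm1 and Trp53i11 higher, Lhx9 lower). For Neurod1 cells against members the 876 became 3191 with DESeq2, 224 and 61 in the E13.25 or E15.25 plates alone, 457 and 266 at Neurog3 minimums of 30 and 100 CPM, 0 at a minimum of 10 cells, 1303 without the replicate block (751 shared) and 395 to 822 with 1 plate left out. For the ages the 14 became 629 with DESeq2, 63 without the filter, 44 at a minimum of 3 cells, 1 to 31 with 1 plate left out, and 0 at a Neurog3 minimum of 30 CPM or in Spp1 cells (chosen after seeing the data), each with 1 E15.25 plate left, or with a term for reads not aligned. The test of a difference between ages gave 345 with DESeq2, 2 without the filter, 2 at 3 cells and 0 to 2 with 1 plate left out. The share of members differed by -14.48 and -13.14 percentage points at 30 and 100 CPM, and by -15.85 to -10.50 with 1 plate left out.

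Log2 differences changed sign in 2 of 431, 1 of 682 and 2 of 323 values of the 3 comparisons: Hes6 (-0.035, minimum of 10 cells) and Sox9 (-0.090, Spp1 cells) against Neurog3-low cells, Dll1 (0.17, E15.25 plates alone) for Neurod1 cells, and Cdkn1a (0.15, Neurog3 of at least 30 CPM) and Hes6 (0.23, term for reads not aligned) between ages. A minimum of 10 cells and of 100 CPM of Neurog3 could not be fitted for the ages. The early classes hold 4 to 12 cells per plate, which limits every test.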

Other observations

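Pdx1 and Nkx6-1 are 2 general transcription factors of the pancreatic epithelium. Their means over plates differed between members and Neurog3-low cells by less than the SD between plates. Pdx1, which marks the pancreatic epithelium, had 54.4 ± 31.03 CPM (SD, n = 6) against 77.9 ± 46.9 CPM (n = 7). Nkx6-1, a factor of trunk and beta cells, had 237 ± 155 against 159 ± 116 CPM. The members had 235 to 384 CPM at E13.25 and 35.4 and 61.1 CPM in trunk 2 and tip 1. Within plates the Nkx6-1 difference was 1.30, 0.76, 0.70 and -0.62 at E13.25, and 0.12 and -0.85 in tip 1 and trunk 2. That of Pdx1 was -2.18, -1.82, -0.48 and -0.40 at E13.25, and 1.17 and -0.40 in tip 1 and trunk 2. These differences are in log2(CPM + 1), and Pdx1 was thus lower in members in each E13.25 plate. Of the 17 factors of this list tested 6 had a positive and 11 a negative difference, and none passed in edgeR. In the Neurod1 cells 2 of the 17 fell, Ehf and Tcf7l2, and none rose.

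The keratin gene Krt7 had 675 ± 259 CPM in the members, 335 ± 105 CPM in the Neurog3-low cells and 1638 ± 654 CPM (n = 5) in the Neurod1 cells. The epithelial cadherin gene Cdh1 had 448 ± 117, 512 ± 36.5 and 153 ± 85.1 CPM in the same order. The 22 immediate early genes, which respond to growth signals and also to cell dissociation, summed to 2700 to 8248 CPM in the members at E13.25 and to 7614 to 11471 CPM at E15.25. The Neurog3-low cells had 3255 to 4622 CPM and 7858 to 15685 CPM at these ages. Between the ages 18 of the 22 genes were higher in the members, with a median of 1.30 beside -0.18 for all genes, and none passed in edgeR.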
